A study of Mus musculus with 4 samples.

Results

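Syt1, Cadm2, Sgcz, Csmd1, Xkr4, St18, Lingo2, Nrxn2 and Sntg1 are genes better known from nerve and muscle, and all 9 were read in the stroma of the thymus. They are 9 of the 32285 features in the count matrices, and each had unique molecular identifiers (UMIs, counted RNA molecules) in all 4 libraries. They were picked by symbol because their summed UMIs had differed between genotypes in epithelial, fibroblast or endothelial cells of these same libraries. Their genotype differences in those 3 kinds of cell are therefore given as descriptions, without a test. The RNA of single cells lacking CD45, from the thymus of untreated C57BL/6 mice aged 6 months, had been sequenced from its 3′ end after capture in droplets. Of the 4 libraries, 2 came from wild-type mice, which the titles call mock (WT 1 and WT 2), and 2 from mice homozygous for a LacZ allele of Foxn1 (Z/Z 1 and Z/Z 2). Per the methods, this allele lowers Foxn1 activity, and the comparison asks what happens to the thymic stroma when Foxn1 is low. Foxn1 encodes the transcription factor on which thymic epithelial cells (TECs) depend. Several thymi were digested together for a library, CD45-positive cells were depleted with beads and the rest were sorted, so a library is a pool of animals and not 1 mouse. The labels give the mice as male and the protocol gives them as female.

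The genes fall into a few roles. Syt1 encodes synaptotagmin-1, the calcium sensor that triggers fusion of synaptic vesicles. Cadm2, a synaptic cell adhesion molecule of the immunoglobulin superfamily, Nrxn2, a presynaptic neurexin, and Lingo2, a transmembrane protein with leucine-rich repeats, act at the cell surface, as does Csmd1, a large protein with CUB and sushi domains. Sgcz (ζ-sarcoglycan) and Sntg1 (γ1-syntrophin) belong to the complex around dystrophin. Xkr4 encodes a membrane protein of the XK family that exposes phosphatidylserine, and St18 encodes a zinc-finger transcription factor of the Myt family. Medullary TECs (mTECs) are known to transcribe many genes of other tissues, brain genes among them, under Aire and Fezf2, and thereby show self-antigens to developing T cells. Some mTECs go on to resemble other cell types, such as tuft cells, the chemosensory cells of mucosal epithelia, and neuroendocrine cells.

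The matrices held 2731, 1192, 5558 and 4500 called barcodes with 29298450, 8468086, 50705511 and 41475499 UMIs in WT 1, WT 2, Z/Z 1 and Z/Z 2. Filtering left 9846 cells, of which 4133 were TECs (556, 103, 1938 and 1536 in the same order), 2740 fibroblasts, 1500 endothelial cells and 804 mural cells (pericytes and vascular smooth muscle). Levels are given as CPM, the UMIs of a gene scaled to the total of the cells summed. TEC markers were strong in the cells so named, with 5424 to 7490 CPM for the 7 markers together against 48.0 to 201 in fibroblasts and endothelium. Foxn1 itself was at 90.4 and 127 CPM in WT TECs and 51.3 and 69.1 in Z/Z TECs. The sources used here do not say where LacZ lies in the gene, so these 3′ tags may not report on the allele. The library with the fewest cells was WT 2, with 103 TECs, 25 endothelial and 11 mural cells. Called barcodes recurred within a genotype, 202 between WT 1 and WT 2 and 249 between Z/Z 1 and Z/Z 2, against 0 to 6 across genotypes. Cells with a shared barcode carried 20.8%, 82.8%, 35.8% and 14.6% of the TEC UMIs of WT 1, WT 2, Z/Z 1 and Z/Z 2. All 52 such TECs of WT 2 had fewer UMIs under their barcode in WT 1, with a median of 3.34% of their own count. In the other libraries this did not hold for all. Fewer UMIs in the other library of the genotype were found for 33 of 50 matched TECs of WT 1, 140 of 142 of Z/Z 1 and 37 of 62 of Z/Z 2. In the fibroblasts of WT 2 such cells carried 63.9% of the UMIs. Values without these cells are given beside the genotype differences that passed the threshold in TECs and fibroblasts. They are not given for clusters or for the levels of lineages, so WT 2 values there rest in large part on cells with a shared barcode.

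Which cell types carried the genes was compared within libraries. The contrast between lineages differs from the one used in the choice, but it rests on the same sums, and a gene picked for a large genotype difference in a lineage had to be expressed there in at least 1 genotype. The counts of genes and the p-values below are therefore not independent of the choice. Nothing is read from the counts, and the p-values are given as descriptions. Over the UMI sums of the 4 lineages in each library (16 sums, library as a block), all 9 genes differed between lineages in edgeR's quasi-likelihood test, with adjusted p of at most 0.0006929. This is common, since 75.3% of the 14581 genes tested passed. Levels here are means of CPM over the 4 libraries of both genotypes, and values are compared only within a gene, since 3′ tags carry no length correction. Between pairs of lineages, TECs and fibroblasts differed for 9 of the 9 genes (6 higher in TECs, 3 lower), against 54.4% of all genes, and endothelium and fibroblasts for 5 (1 higher in endothelium, 4 lower), against 41.2% (18.6% and 22.6%). Endothelium was lower than TECs for 7 of 9, against 28.2% of genes (50% differed and 21.8% were higher). Mural cells were lower than fibroblasts for 4 of 9, against 20.9% (37.9% differed, 17% higher), and lower than TECs for 6 of 9, against 26% (48% differed, 22% higher). Mural cells and endothelium differed for 2 of 9 (1 higher in mural cells, 1 lower), against 39% (20% and 19%).

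Syt1, Cadm2, Sgcz, Xkr4, St18 and Lingo2 were highest in TECs. Syt1 averaged 819 CPM in TECs (SD 740, n = 4), 54.7 in endothelium (SD 50.0), 25.4 in fibroblasts (SD 28.6) and 3.64 in mural cells (SD 4.33). In the fits TECs exceeded fibroblasts by a log2 difference of 5.07 (SE 0.35, edgeR adjusted p = 8.768e-09). Endothelium exceeded fibroblasts by 1.34 (SE 0.32, edgeR adjusted p = 0.003522) and mural cells were below fibroblasts at −1.96 (SE 0.52, edgeR adjusted p = 0.007295). Cadm2 averaged 120 CPM in TECs (SD 120) and 2.52 to 4.59 in the other lineages. The log2 difference from fibroblasts was 4.07 for Cadm2, 4.63 for Sgcz, 2.32 for Xkr4, 3.83 for St18 and 3.81 for Lingo2, with edgeR adjusted p from 1.807e-06 to 0.0005033, and TECs were higher in 4 of 4 libraries for each. For Sgcz the call did not hold in the Z/Z libraries alone, at 1.52 (SE 0.60, edgeR adjusted p = 0.05039). These 6 are set against 28.1% of all tested genes that were higher in TECs than in fibroblasts. Among fibroblasts, endothelium and mural cells, Cadm2, Sgcz, St18 and Lingo2 did not differ in any of the 3 pairs beyond their spread (edgeR adjusted p 0.4323 to 0.9654). Xkr4 was lower in endothelium than in fibroblasts, at −1.43 (SE 0.50, edgeR adjusted p = 0.0298).

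The remaining 3 genes were on average highest in fibroblasts. Csmd1 averaged 4215 CPM in fibroblasts (SD 3462), 914 in mural cells (SD 482), 664 in TECs (SD 374) and 54.5 in endothelium (SD 42.5). Fibroblasts exceeded TECs, with a TEC-to-fibroblast log2 difference of −2.76 (SE 0.69, edgeR adjusted p = 0.003191), and 26.3% of all tested genes were lower in TECs. Mural cells and TECs could not be separated (0.38, SE 0.62, edgeR adjusted p = 0.657), and endothelium was the lowest, at −3.44 against TECs (SE 0.68, edgeR adjusted p = 0.000574). Nrxn2 averaged 45.1 CPM in fibroblasts (SD 8.87), 15.6 in mural cells (SD 22.7), 3.07 in TECs (SD 0.68) and 1.34 in endothelium (SD 1.54), and the last 3 did not differ from each other beyond their spread (edgeR adjusted p 0.1072 to 0.6382). The mural mean of Nrxn2 rested on WT 2, where 6 UMIs in 1 of 11 cells gave 52.1 CPM (unscaled). The other libraries were at 2.77 to 4.69 CPM in mural cells. Sntg1 averaged 570 CPM in fibroblasts (SD 467), 45.5 in TECs (SD 49.5), 20.1 in endothelium (SD 34.3) and 10.1 in mural cells (SD 8.12). Only fibroblasts stood apart from the others for Sntg1, with a TEC-to-fibroblast difference of −4.21 (SE 0.97, edgeR adjusted p = 0.001755).

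**Figure D1:**
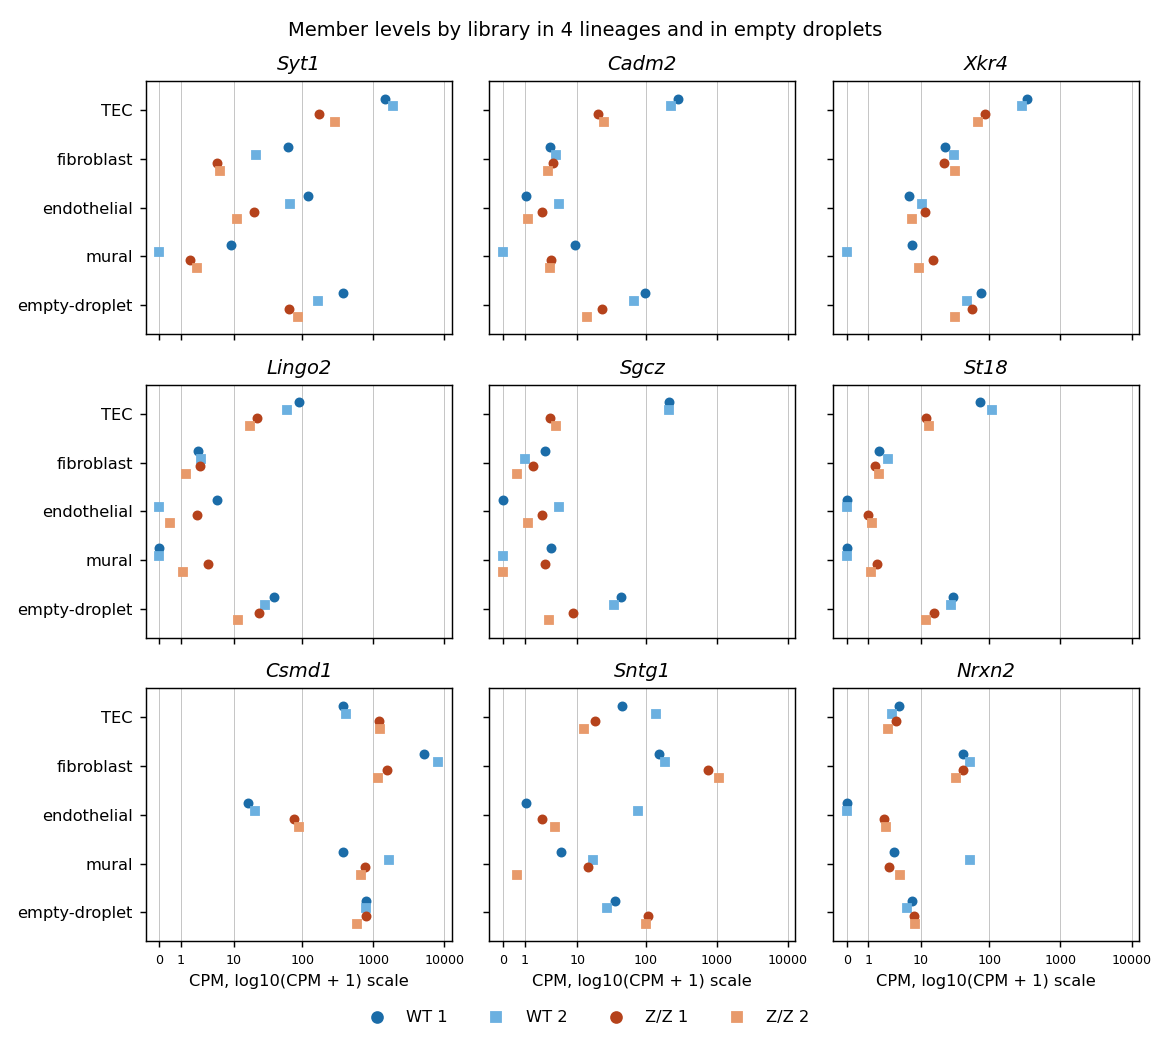
Each panel shows 1 gene, with CPM on a log10(CPM + 1) axis for each library in TEC, fibroblast, endothelial, mural and empty-droplet sums, and points coloured by genotype. Among the 4 lineages Syt1, Cadm2, Sgcz, Xkr4, St18 and Lingo2 sit highest in TECs, while Nrxn2 and Sntg1 sit highest in fibroblasts, as does Csmd1 except in Z/Z 2, where TECs (1235 CPM) lie just above fibroblasts (1160). In Z/Z 1 the empty droplets sit above the TECs for Cadm2, Sgcz, St18 and Lingo2.

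The genes whose pattern over the 16 sums was most like that of a member were found by Pearson's r of log2(CPM + 1) among 11913 genes with a mean of at least 5 CPM. Syt1 was most like Vps13a, Mid2 and Zfand6 (r = 0.96 for each), and Cadm2 was most like Nup85 (0.97), Sspo and Gak. St18 was most like Dnah9 and Dab1 (0.98 each) and Tafa2, and Lingo2 was most like Rap1gap and BC051142 (0.97 each) and again Dnah9. For Xkr4 the nearest were Retreg3, Tmem19 and Rab21 (0.97 each), and for Sgcz they were Gip, Cnfn and Orm1 (0.94 each). The fibroblast genes had other neighbours, Ror1, Nckap5 and Fam171b for Csmd1 (0.95 to 0.96), Plcxd3, Lsamp and Adamts3 for Nrxn2 (0.94 to 0.96) and Pip5k1a, Dnaja3 and Xpnpep2 for Sntg1 (0.88). The 16 points share 4 libraries, so these values are descriptions. Lsamp, an adhesion molecule of the IgLON family, was the only one of these genes that also stood on the lists of synaptic genes used here.

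In TEC sums, 7 of the 9 genes were lower and 1 was higher in Z/Z, against 21.8% of 18833 genes called by edgeR (11.9% lower, 9.93% higher). For the same 7 and 1 genes the genotypes did not overlap, against 33.2% of genes with both Z/Z libraries lower and 34.6% with both higher. The genes were chosen with this contrast, and nothing is read from these counts. Without shared barcodes 1 gene of all those tested was called in TEC sums, against 4115 with them. Such a sum mixes all epithelial classes, so fewer cells of a class and less RNA per cell cannot be told apart in it. Levels are CPM scaled with TMM factors, in the order WT 1, WT 2, Z/Z 1, Z/Z 2, and log2 fold changes are Z/Z over WT.

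Syt1, the vesicle sensor, was at 1467, 1909, 171 and 292 CPM in TECs, a log2 fold change of −2.87 (SE 0.32). Cadm2 was at 285, 228.5, 20.2 and 24.8 CPM, at −3.51 (SE 0.20). The genotypes were far apart for both genes, and the WT libraries lay near each other. Without shared barcodes WT 2 fell to 412 CPM for Syt1 and 98.5 for Cadm2 while WT 1 stood at 1577 and 346, and the groups still did not overlap.

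The promoters of these 2 genes are shown because both were read mostly in the same epithelial cells, those of the Aire stage described next. Each stretch is the 250 bases before the RefSeq start (GRCm38.p6), 5′ to 3′ on the strand of the gene, and capitals mark CCAAT, a common promoter box, or ATTGG, the same box on the other strand. Syt1 lies on the minus strand of chromosome 10 from 108497650 to 109010982 (GRCm38, GENCODE vM21), and of its 2 windows in the table the one nearer the annotated gene start is shown, at chr10:109010976-109011225. Cadm2 lies on the minus strand of chromosome 16 from 66655421 to 67620908, with its promoter at chr16:67620909-67621158.
Syt1: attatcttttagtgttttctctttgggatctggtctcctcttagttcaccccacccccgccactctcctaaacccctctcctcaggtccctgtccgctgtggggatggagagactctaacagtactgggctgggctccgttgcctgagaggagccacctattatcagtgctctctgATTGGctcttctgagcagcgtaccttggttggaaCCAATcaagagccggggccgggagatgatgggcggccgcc
Cadm2: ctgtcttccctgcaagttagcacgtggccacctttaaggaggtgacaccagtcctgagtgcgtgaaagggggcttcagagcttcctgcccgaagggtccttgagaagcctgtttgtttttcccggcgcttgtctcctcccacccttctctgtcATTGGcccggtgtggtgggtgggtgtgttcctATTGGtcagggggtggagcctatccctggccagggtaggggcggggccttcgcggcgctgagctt
Each of the 2 stretches shown holds 2 such boxes, which do not overlap, while 33.8% of 32851 promoters of the same length hold at least 1. Neither window holds TATAAA or TTTATA, found in 12.4% of all, and CG occurs 8 and 10 times against a median of 6. The other Syt1 window, at chr10:109009112-109009361, holds 0 such boxes and CG 5 times. The table of promoters held Syt1, Cadm2 and Lingo2 among the 9 genes.

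TECs were clustered with the 9 genes left out of the clustering, and 8 clusters could be named from markers. The Aire-stage mTEC-like cluster (Aire, Fezf2, Cd80) took up 49.8%, 47.6%, 3.1% and 5.27% of the TECs of WT 1, WT 2, Z/Z 1 and Z/Z 2. It carried 90.8%, 99.3%, 84.0% and 79.3% of all TEC UMIs of Syt1. In WT 2 most of these came from cells with a shared barcode, since 163 of 4570 TEC UMIs of Syt1 were left without such cells. Within the Aire-stage cluster Syt1 was at 2388, 3163, 2091 and 1862 CPM (unscaled, as for all clusters), and the genotypes did not overlap here either. Among all TECs, Syt1 UMIs were found in 64.4%, 46.6%, 7.33% and 11.4% of cells. The mean of the WT libraries was 1.4 times that of the Z/Z libraries in this cluster, where it was 8.0 times in the sum over all TECs. Syt1 UMIs were found in 91.3% of its cells in WT 1 (95% Clopper-Pearson interval 87.4% to 94.4%), 87.8% in WT 2 (75.2% to 95.4%), 95.0% in Z/Z 1 (interval 86.1% to 99.0%) and 93.8% in Z/Z 2 (interval 86.2% to 98.0%). After each cell was thinned to 2000 UMIs, which left out 11, 1, 1 and 1 shallower cells, the shares were 80.8%, 77.1%, 79.7% and 77.5%. Mural cells gave the background, with Syt1 UMIs in 7.35% of cells of WT 1, 0 of 11 in WT 2 (which allows up to 27.3%), 0.973% in Z/Z 1 and 1.27% in Z/Z 2, at median depths of 7787, 11390, 5454 and 5043 UMIs against 21770, 27530, 21860 and 24180 in the Aire-stage cells. Thinned, the mural shares were 1.47%, 0%, 0.494% and 0%. Intervals and limits cover counting error only.

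All other TECs together had Syt1 at 348, 34.4, 27.5 and 66.0 CPM. Single clusters among them were higher, such as the tuft-like cells (1131, 192, 165 and 474 CPM). The neuro-like cells (Chga, Chgb, Car8), a rare class of 4, 0, 7 and 6 cells, read 2632, 2347 and 4648 CPM in the 3 libraries that had any. Cadm2 followed the Aire-stage cluster as well, with 471, 359, 191 and 143 CPM there and 92.2%, 94.1%, 65.2% and 71.5% of its TEC UMIs. In that cluster the WT mean was 2.48 times the Z/Z mean, against 12.6 times in the sum. Tuft-like cells (Trpm5, Avil) also held Cadm2, at 376, 383, 259 and 7.90 CPM.

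Xkr4 was at 342, 292, 87.1 and 69.6 CPM in TEC sums, at −2.02 (SE 0.18). Its Aire-stage levels were 540, 413, 248 and 181 CPM, a WT mean 2.22 times that of Z/Z against 4.46 times in the sum, and neuro-like cells were as high or higher in Z/Z (212 in WT 1, then 412 and 638). The Aire-stage cells held 88.2%, 85.0%, 19.6% and 32.3% of Xkr4 UMIs in the 4 libraries, so in Z/Z most Xkr4 was read elsewhere in the epithelium. The aaTEC1-like cells held 23.5% and 18.7% of Xkr4 UMIs in Z/Z, less than their 28.3% and 26.0% of all TEC UMIs. The name aaTEC stands for age-associated TEC. Without shared barcodes the Xkr4 sums were 371, 152, 75.7 and 70.5 CPM.

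Lingo2 was at 89.3, 61.0, 22.2 and 17.9 CPM in TECs, at −1.92 (SE 0.25). In 3 of 4 libraries its highest named cluster was that of mTEC1-like cells (Ccl21a, Krt14), the medullary cells before the Aire stage, at 318, 15.6, 238 and 99.8 CPM, while WT 2 was highest in Aire-stage cells (111, 94.1, 66.6 and 51.4 CPM). In the Aire-stage cells the WT mean was 1.74 times the Z/Z mean. In the mTEC1-like cells WT 1 lay above both Z/Z libraries, and the WT 2 value, from 4 cells and 1 UMI, lay under the 46.7 CPM that 3 UMIs would give there. Without shared barcodes WT 2 fell to 12.6 CPM in the sum, from 5 UMIs, and the groups overlapped. Nrxn2, the neurexin, was low in TECs, at 4.47, 3.34, 3.94 and 2.84 CPM, a difference of −0.24 (SE 0.43) that did not pass the threshold.

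**Figure D2:**
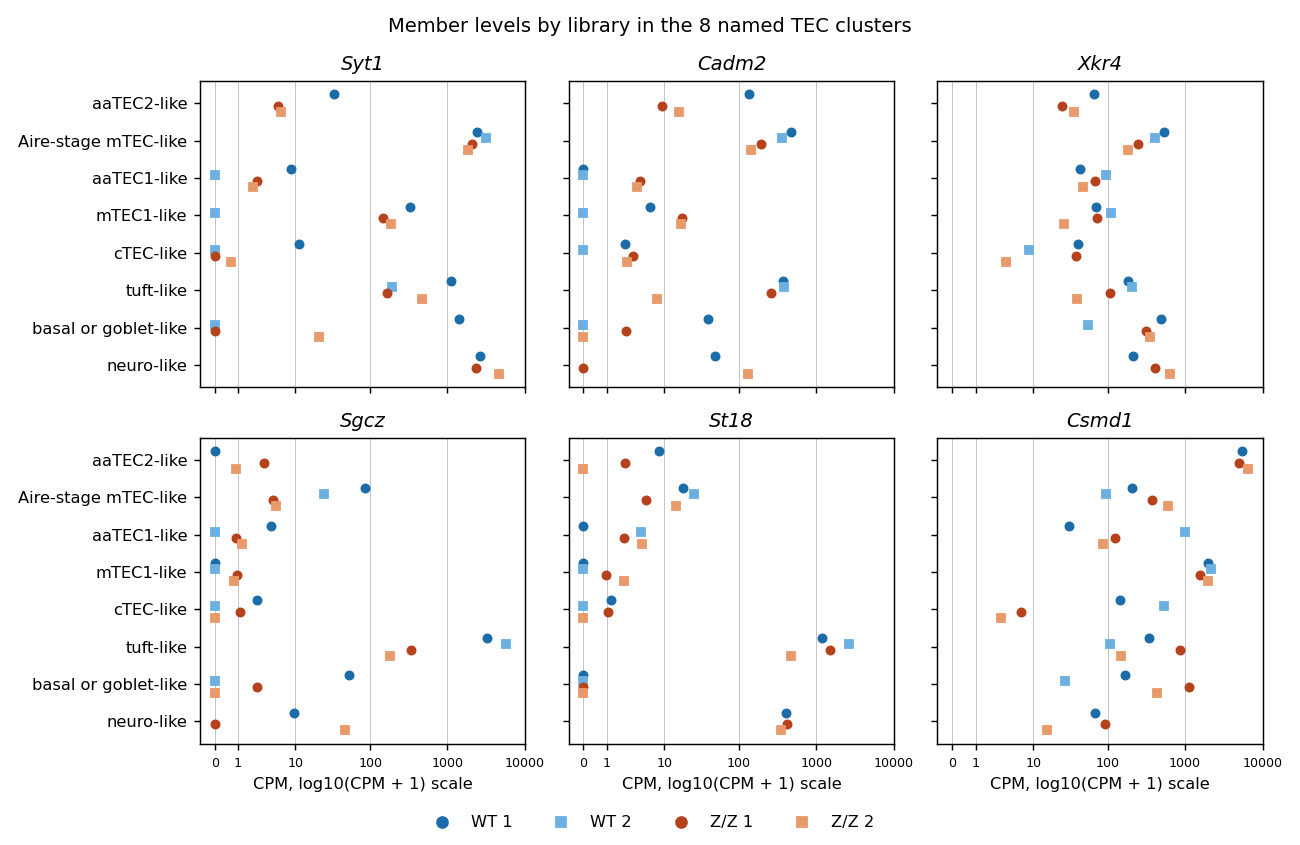
CPM of Syt1, Cadm2, Xkr4, Sgcz, St18 and Csmd1 (log10(CPM + 1) axis) in the 8 named TEC clusters, with 1 point for each library that had cells there, coloured by genotype. Syt1 is high in Aire-stage and neuro-like cells, Cadm2 in Aire-stage and tuft-like cells, Sgcz and St18 in tuft-like cells, and Csmd1 in aaTEC2-like cells.

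Sgcz and St18 were genes of the tuft-like cluster, with 39, 5, 7 and 23 cells or 7.01%, 4.85%, 0.361% and 1.5% of TECs. Sgcz stood at 211, 214, 3.51 and 4.53 CPM in TEC sums, the lowest fold change of the 9 at −5.72 (SE 0.20). Without shared barcodes it stood at 159, 154, 4.76 and 4.89 CPM. In tuft-like cells it was at 3223, 5676, 342 and 182 CPM, so the WT mean was 17.0 times that of Z/Z in this cluster and 58.2 times in the sum. In the other TECs it was at 56.1, 17.1, 1.86 and 1.81 CPM. Very few cells made up these sums. The top cell held 1146 of 2737 Sgcz UMIs in WT 1 (41.9%) and 367 of 512 in WT 2 (71.7%), and without the top cell of each library the sums were 131, 64.0, 2.06 and 2.79 CPM. Sgcz UMIs were present in 48.7%, 60.0%, 42.9% and 13.0% of tuft-like cells, and in 2 of 68, 0 of 11, 6 of 411 and 0 of 314 mural cells.

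St18 was at 73.4, 108, 11.9 and 13.4 CPM in TECs, at −2.83 (SE 0.25). Tuft-like cells held 81.0%, 85.3%, 57% and 51.5% of its UMIs, and within them it was at 1190, 2646, 1497 and 470 CPM, where the genotypes overlapped. The WT mean was 1.95 times the Z/Z mean within the cluster and 7.9 times in the sum. Neuro-like cells came next, with 405, 421 and 350 CPM in the libraries other than WT 2, which had no such cell. In WT 2 the top cell held 67.6% of the St18 UMIs, and without shared barcodes the sums were 94.8, 58.1, 15.75 and 14.7 CPM.

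Csmd1 was the gene that was higher in Z/Z, at 377, 417, 1189 and 1235 CPM in TECs, a fold change of 1.61 (SE 0.16), and at 442, 487, 1538 and 1328 CPM without shared barcodes. The aaTEC2-like cluster, low in Epcam (UMIs in 11.6% of cells) and with Nos1, Ano1 and Zeb2 among its leading genes, read 5409 CPM in WT 1, had no cells in WT 2 and read 4937 and 6528 CPM in Z/Z. Its share of TECs was 2.16%, 0%, 28.5% and 24.9%, and its share of TEC Csmd1 UMIs was 13.2%, 0%, 72.3% and 69.8%. Csmd1 was present in 12 of 12, 550 of 553 and 381 of 383 of these cells, which is 100%, 99.5% and 99.5% (95% Clopper-Pearson lower bounds 73.5%, 98.4% and 98.1%), against 12.8%, 16%, 11.2% and 8.51% of endothelial cells in the 4 libraries. Thinned, the shares were 100%, 96.9% and 97.9% against 4.76%, 8%, 5.19% and 4.78%. Median depths were 9138, 5380 and 5189 UMIs in the aaTEC2-like cells and 6622, 6444, 5338 and 4928 in endothelium. In the TECs outside this cluster Csmd1 was at 349, 433, 371 and 410 CPM, a ratio of 1.0 between the means and a fold change of 0.155 (SE 0.18) in an alternative added after the data were seen. Single clusters among those TECs moved in both directions. Csmd1 was lower in both Z/Z libraries in cTEC-like cells (145, 538, 6.62 and 3.245 CPM) and in the unnamed clusters led by Gm26802, Rrad and Trp63. WT 2 had only 3 to 7 cells in each of these. Csmd1 was higher in both Z/Z libraries in Aire-stage cells (210, 94.7, 373.5 and 610 CPM) and, from few cells, in basal or goblet-like cells. mTEC1-like cells carried Csmd1 too, at 1962, 2194, 1569 and 2003 CPM.

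Sntg1 was at 45.1, 139, 18.3 and 12.7 CPM in TECs, at −2.54 (SE 0.55). One cell of WT 2 held 250 of its 333 UMIs (75.1%) and one of WT 1 held 172 of 585 (29.4%). Without the top cell of each library the values were 33.8, 36.9, 12.8 and 10.4 CPM, and without shared barcodes they were 53.4, 15.2, 16.5 and 13.8, where the genotypes overlapped. No epithelial cluster was high in all libraries. The cTEC-like cells were at 212 CPM in WT 1 and 1.10 to 8.82 in the other libraries, and the Aire-stage cells at 24.6, 231, 62.8 and 57 CPM.

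In fibroblast sums 3 of the 9 genes were called, 2 lower and 1 higher in Z/Z, against 3.12% of 13870 genes (1.31% lower, 1.81% higher). The genotypes did not overlap for 3 genes lower and 1 higher in Z/Z, against 24.5% and 26.2% of genes. These values entered the choice of the genes. Csmd1 was at 5096, 8122, 1570 and 1160 CPM, at −2.28 (SE 0.26), the opposite direction from TECs. Without shared barcodes it was at 5289, 7471, 1548 and 1130 CPM. It was read mainly in 3 of the 5 fibroblast clusters and was lower in both Z/Z libraries in each. The Ptn/Pde7b cluster, named like the others by leading genes, was at 7170, 9975, 2171 and 2031 CPM, the Postn/Sod3 cluster at 11560, 16110, 5019 and 6209, and the Prr16/Csmd1 cluster at 25670, 20490, 6956 and 10660. The WT means were 4.08, 2.46 and 2.62 times the Z/Z means within these clusters and 5.03 times in the sum. The Inmt/Penk cluster stood at 442, 2513, 473 and 560 CPM and the Pi16/Opcml cluster at 87.8, 276.5, 168 and 81.7, and the genotypes overlapped in both.

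Sntg1 ran the other way, at 155, 188, 748 and 1077 CPM in fibroblasts, a fold change of 2.42 (SE 0.22), and at 161, 145, 736 and 1045 CPM without shared barcodes. It was read mainly in the 2 fibroblast clusters where Csmd1 was lowest. In the Pi16/Opcml cluster Sntg1 was at 402.5, 602, 1650 and 1893 CPM and the Z/Z mean was 3.53 times the WT mean. In the Inmt/Penk cluster it was at 271, 336, 1149 and 1006 CPM, 3.55 times. The Ptn/Pde7b cluster was low and also higher in Z/Z, at 8.91, 1.27, 87.1 and 96.8 CPM. The genotypes overlapped in the Postn/Sod3 cluster (7.94, 191, 18.3 and 52.2 CPM), where the WT mean was 2.82 times the Z/Z mean, and in the Prr16/Csmd1 cluster (5.12, 236.5, 180 and 61.2 CPM), where the ratio of the means was 1.0. Sntg1 UMIs were present in 43.5% of Pi16/Opcml cells in WT 1 (95% Clopper-Pearson interval 35.5% to 51.7%), 53.3% in WT 2 (34.3% to 71.7%), 88.7% in Z/Z 1 (interval 83.4% to 92.8%) and 85.2% in Z/Z 2 (interval 79.2% to 90.0%). Thinned to 2000 UMIs the shares were 25.7%, 36.7%, 74.4% and 74.2%. Mural cells had 4.41%, 18.2%, 6.57% and 0.318%, and 1.47%, 0%, 3.21% and 0.329% when thinned. Median depth was 16400, 18530, 14110 and 12680 UMIs in the Pi16/Opcml cells. Sntg1 was thus read in a larger share of these fibroblasts in Z/Z although their depth was lower.

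**Figure D3:**
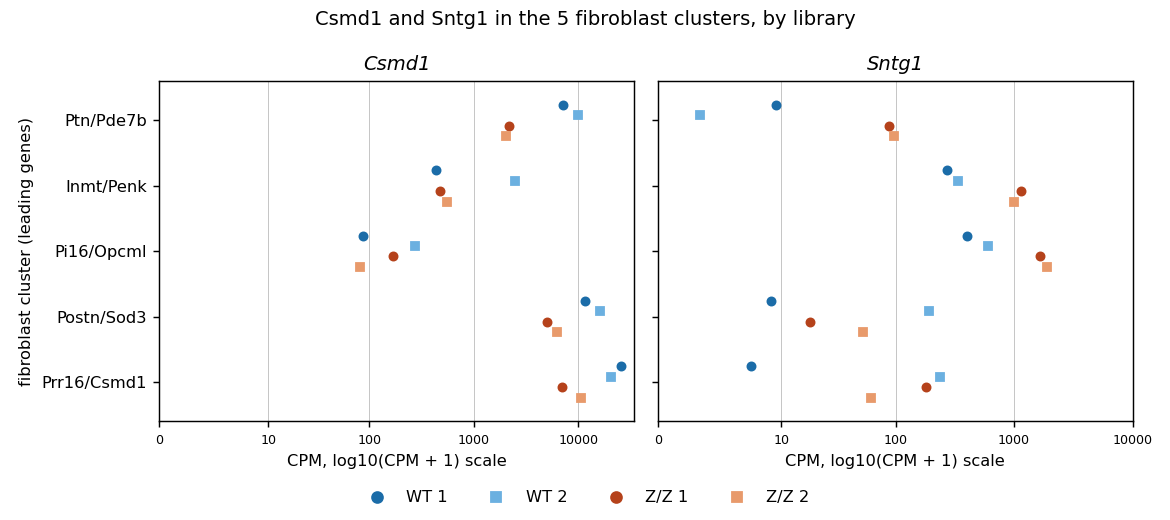
CPM of Csmd1 and Sntg1 (log10(CPM + 1) axis) in the 5 fibroblast clusters, 1 point for each library, coloured by genotype. Csmd1 is high in the Ptn/Pde7b, Postn/Sod3 and Prr16/Csmd1 clusters and lower in Z/Z there, and Sntg1 is high in the Pi16/Opcml and Inmt/Penk clusters and higher in Z/Z there.

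Syt1 was low in fibroblasts, at 62.6, 21.7, 5.40 and 6.10 CPM, with a fold change of −2.94 (SE 0.42). Without shared barcodes it was at 65.2, 29.15, 5.08 and 5.96 CPM. In WT most of it was in the Pi16/Opcml cluster, at 164 and 70.8 CPM, which read 2.17 and 3.95 CPM in Z/Z. The Inmt/Penk cluster was at 69.0, 26.3, 11.1 and 10.05 CPM and held the most Syt1 UMIs in Z/Z, 37 and 33. Levels of the other 6 genes did not pass the threshold in fibroblasts. Nrxn2 was at 41.4, 53.5, 42.5 and 33.4 CPM (−0.30, SE 0.20), and its level was highest in the Ptn/Pde7b cluster, at 85.0, 85.9, 76.9 and 79.2 CPM. That cluster held 296 of 355, 135 of 153, 375 of 504 and 104 of 241 Nrxn2 UMIs, and in Z/Z 2 the Inmt/Penk cluster held more, 116. Xkr4 was at 23.2, 31.5, 21.9 and 32.3 CPM (0.01, SE 0.25), with 57.2, 121, 44.0 and 54.0 CPM in the Pi16/Opcml cluster. Cadm2, Sgcz, St18 and Lingo2 stayed between 0.555 and 4.54 CPM, with fold changes from −0.95 to −0.12 and SE of 0.41 to 0.69.

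Endothelial sums had 4 of the 9 genes past the filter on low counts, and 2 of these were called, against 2.05% of 11349 genes (1.02% lower, 1.03% higher). The genotypes did not overlap for the same 2, against 23.7% with Z/Z lower and 29.4% with Z/Z higher. They too entered the choice. Syt1 was at 119, 67.0, 20.4 and 11.1 CPM (−2.68, SE 0.35). It came from 108, 13, 104 and 53 UMIs, of which the top 5 cells held 75.9%, 100%, 69.2% and 50.9%. Syt1 was read in the Selp/F5 cluster, venous endothelial genes, at 188, 101, 85.1 and 27.2 CPM and in the Gpihbp1/Fabp4 cluster, capillary genes, at 122, 95.1, 7.29 and 9.29. Without shared barcodes the sums were 115, 94.9, 12.8 and 11.3 CPM. Csmd1 was at 16.5, 20.6, 77.4 and 88.9 CPM (2.26, SE 0.32), with 67.5% and 76.4% of the Z/Z UMIs in 5 cells of each library. With every cell thinned to 2000 UMIs the Csmd1 fold change was 0.64 (SE 0.52), which did not pass. The share of endothelial cells with a Csmd1 UMI, given above, was lower in both Z/Z libraries, whose cells were shallower, and the shares after thinning overlapped. Xkr4 (6.59, 10.3, 11.4 and 7.15 CPM) did not pass the threshold, nor did Sntg1, whose 77.3 CPM in WT 2 came from 15 UMIs in 1 cell. Cadm2, Sgcz, St18, Lingo2 and Nrxn2 had at most 13 endothelial UMIs in any library and were not tested.

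Markers of other cells moved with some of these values. The 7 TEC markers summed to 201 and 126 CPM in WT endothelium and 95.1 and 111 in Z/Z, with 0, 3, 0 and 0 of them at 0, and the groups did not overlap. The 5 Aire-stage markers in endothelium did overlap, at 283, 84.2, 171 and 184.5 CPM. In fibroblasts the Aire-stage markers were low and slightly lower in Z/Z (12.1, 12.6, 9.67 and 11.9 CPM, with 0, 1, 0 and 0 at 0). The 7 TEC markers in fibroblasts overlapped (60.8, 48.0, 49.9 and 72.5 CPM), as did the 6 fibroblast markers in endothelium (56.6, 47.4, 65.4 and 50.2 CPM, with 0, 4, 0 and 0 at 0). In TEC sums, where Csmd1 was higher in Z/Z, the 6 fibroblast markers (128, 111, 209 and 254 CPM, none at 0) and the 6 endothelial markers (30.5, 27.7, 39.7 and 53.0 CPM, with 0, 1, 0 and 0 at 0) were higher in Z/Z without overlap. Endothelial markers were also higher in Z/Z in fibroblasts (25.9, 33.7, 48.2 and 34.4 CPM). The 7 haematopoietic markers in TECs (106, 75.4, 18.0 and 70.6 CPM) were lower in Z/Z. The 9 neuron markers, of which 0, 1, 0 and 0 were at 0, were at 182, 174, 115 and 106 CPM in TECs, also without overlap. Median depth per TEC was 15600, 16510, 6010 and 6264 UMIs, and per fibroblast 13010, 13610, 9493 and 9452. The part of these in the results was not tested.

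Mural cells and empty droplets were not used in choosing the genes, so their genotype differences were tested. Both come from the same libraries, and empty droplets hold the free RNA around the cells used in the choice. These tests are therefore not independent of the choice. In mural sums Csmd1, Xkr4 and Sntg1 passed the filter and 0 of 3 were called by edgeR, with 0 of 3 at an unadjusted p under 0.05 and 0 of 3 called by DESeq2, against 0.115% of 8675 genes (0.104% higher, 0.0115% lower). The genotypes did not overlap for 1 of the 3, Xkr4 with Z/Z higher, against 24.3% of genes higher and 18.2% lower. Csmd1 was at 381, 1644, 772 and 675 CPM (−0.42, SE 0.48, edgeR adjusted p = 0.8555), and its 2 WT libraries differed more than the genotypes did. A small cluster with Rgs16 and Kcnq5 (6, 3, 105 and 67 cells) was at 5988, 11020, 3572 and 3160 CPM, against 162, 30.5, 43.3 and 106 in the Acta2/Ctnna3 cluster. It held 119 of 207 mural Csmd1 UMIs in WT 1 and 186 of 189, 1764 of 1852 and 1004 of 1151 in the other libraries. Without WT 1 the mural difference was −1.09 (edgeR adjusted p = 0.02235). Xkr4 (7.37, 0, 15.4 and 9.38 CPM, edgeR adjusted p = 0.7589) and Sntg1 (5.53, 17.4, 14.6 and 0.587 CPM, edgeR adjusted p = 0.9972) rested on at most 37 UMIs in a library.

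Barcodes with at most 100 UMIs that were not called as cells hold the free RNA of a library, and their sums differed between genotypes for 5 of the 9 genes, 4 lower and 1 higher in Z/Z, against 29.5% of 12453 genes (14.4% lower, 15.1% higher). By DESeq2 4 were called. The genotypes did not overlap for 6 genes with Z/Z lower and 2 with Z/Z higher, against 35.7% and 37.1% of genes. Syt1 was at 373, 168, 64.6 and 87.5 CPM (−1.84, SE 0.39, edgeR adjusted p = 0.01621) and Cadm2 at 97.3, 68.8, 23.6 and 14.2 (−2.10, SE 0.34, edgeR adjusted p = 0.009296). Sgcz fell from 44.2 and 35.6 CPM to 8.66 and 3.39 (−2.62, SE 0.43, edgeR adjusted p = 0.009339). Sntg1 rose from 36.3 and 27.6 to 106 and 99.7 CPM (1.68, SE 0.27, edgeR adjusted p = 0.00911). These 4 calls had the direction of the TEC sums for Syt1, Cadm2 and Sgcz and of the fibroblast sums for Sntg1. Coming from free RNA of the same libraries, the calls are not independent support for those sums. St18 was at 30.5, 28.2, 15.75 and 12.2 CPM (−1.05, SE 0.33, edgeR adjusted p = 0.04414), a call that was lost with DESeq2, with up to 50 UMIs and without any 1 of the libraries. Csmd1, at 792, 794, 783 and 599 CPM (edgeR adjusted p = 0.6543), Xkr4 (0.3283), Lingo2 (0.1033) and Nrxn2 (0.7033) did not pass the threshold.

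Set against this free RNA, cells fell on both sides. Syt1 in TECs was 4.6, 12.9, 2.78 and 3.45 times the CPM of the empty droplets of the same library (all unscaled), and Xkr4 was 5.21, 6.95, 1.61 and 2.25 times. Cadm2 (3.43, 3.79, 0.897 and 1.8 times), Sgcz (5.59, 6.85, 0.426 and 1.38), St18 (2.81, 4.37, 0.792 and 1.13) and Lingo2 (2.61, 2.41, 0.987 and 1.61) in TECs lay above the free RNA in all libraries but Z/Z 1. Csmd1 in TECs lay below it in WT and above it in Z/Z (0.556, 0.6, 1.6 and 2.13 times), Sntg1 above it in WT and below it in Z/Z (1.45, 5.75, 0.181 and 0.131), and Nrxn2 below it in all (0.361 to 0.711). In fibroblasts Syt1 was 0.192, 0.142, 0.0915 and 0.0729 times, and in endothelium 0.342, 0.447, 0.348 and 0.136 times, so Syt1 in these lineages lay below the free RNA in all libraries. Cadm2 in fibroblasts was 0.0425 to 0.244 times the free RNA. Csmd1 in fibroblasts was 7.36, 11.3, 2.2 and 2.02 times the free RNA and Sntg1 in fibroblasts 4.88, 7.53, 7.71 and 11.3 times. Nrxn2 in fibroblasts was 4.29 to 9.61 times. There were 5.15, 8.35, 8.48 and 11.8 Syt1 UMIs per Cadm2 UMI in TECs, 17.3, 4.77, 1.36 and 1.83 in fibroblasts, 108, 13.0, 8.0 and 8.83 in endothelium and 3.83, 2.45, 2.73 and 6.14 in empty droplets. The 95% counting intervals of fibroblasts and empty droplets overlapped in WT 2 (2.6 to 9.45 and 1.96 to 3.08) and Z/Z 1 (0.92 to 2.03 and 2.02 to 3.74) and did not in WT 1 (12.1 to 25.8 and 3.26 to 4.53) and Z/Z 2 (1.09 to 3.15 and 3.85 to 10.3). The part of free RNA in the levels of these cells was not tested.

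**Figure D4:**
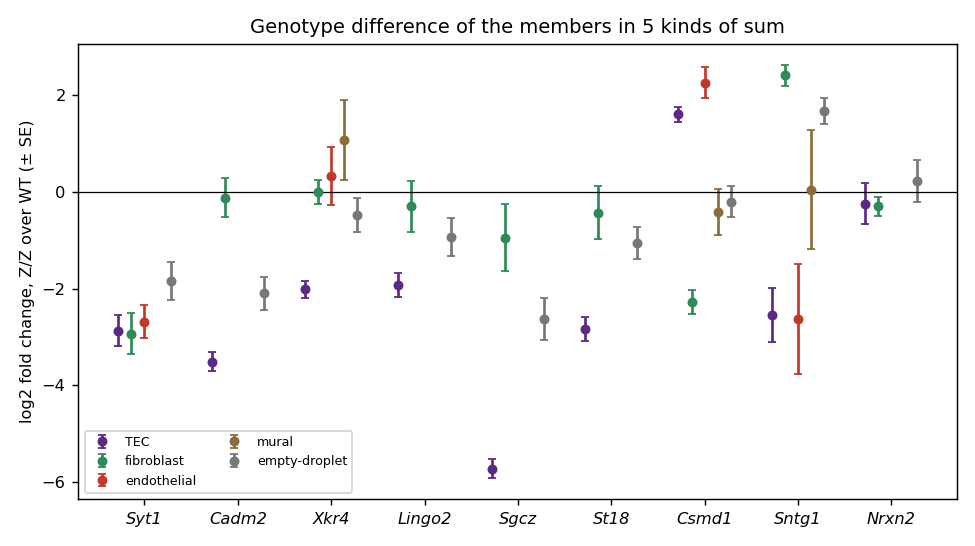
Log2 fold change of Z/Z over WT with its SE for the 9 genes in TEC, fibroblast, endothelial, mural and empty-droplet sums, where 0 marks no difference and genes that failed the filter have no point. Csmd1 lies above 0 in TECs and endothelium and below it in fibroblasts, Sntg1 the reverse between TECs and fibroblasts, and Syt1 lies below 0 in TEC, fibroblast, endothelial and empty-droplet sums.

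Other genes of the same families and of the synapse were taken from lists whose content did not depend on how each gene moved, though they were drawn up with earlier results known. In TEC sums 18 of 39 tested family relatives were called (7 higher, 11 lower), 23 of 56 synaptic adhesion genes (6 higher, 17 lower), 5 of 19 vesicle release genes (2 higher, 3 lower) and 2 of 6 genes of the dystrophin complex (2 higher), against 21.8% of all genes (9.93% higher, 11.9% lower). Without shared barcodes edgeR called 1 gene of all in TEC sums, a lower one, so none of the rises given next held there. The medians were −0.87, −0.84, 0.15 and 0.34, beside −0.002 over all genes. Relatives that rose included Cadm4, a relative of Cadm2, at 11.7, 17.1, 60.4 and 59.5 CPM (2.11, SE 0.24, edgeR adjusted p = 0.00888), Sgce (ε-sarcoglycan) at 2.16, 2.09, 21.1 and 13.6 CPM (3.02, SE 0.37, edgeR adjusted p = 0.009576) and the syntrophin Sntb2 at 238, 167.5, 777 and 767.5 CPM (1.92, SE 0.21, edgeR adjusted p = 0.008553). Cadm4 and Sgce thus stood higher in Z/Z in the epithelial sums in which Cadm2 and Sgcz stood lower.

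Among synaptic genes, the adhesion protein Cntnap2 fell (248, 312, 44.7 and 42.5 CPM, −2.68, SE 0.17, edgeR adjusted p = 0.006793), as did Rims2, which tethers vesicles at release sites (−2.49, SE 0.18, edgeR adjusted p = 0.006997), while the calsyntenin Clstn1 rose (1.51, SE 0.13, edgeR adjusted p = 0.007188). All 5 Aire-stage markers fell (median −2.05). Also called among markers were 2 of 8 neuron genes (2 lower), 2 of 7 neuroendocrine genes (2 lower, with Insm1 at −2.22), 2 of 7 Schwann cell genes (1 higher, 1 lower) and 1 of 4 nuclear RNAs (1 lower), with medians of −1.12, −0.70, −0.81 and 0.02.

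Fibroblast sums held 5 called genes of 96 tested from all lists, against 3.12% of all genes. Meg3, a nuclear RNA (0.88, SE 0.16, edgeR adjusted p = 0.01771), and Cdh19, a Schwann cell cadherin (1.83, SE 0.37, edgeR adjusted p = 0.03001), rose. Dtna of the dystrophin complex (−1.91, SE 0.28, edgeR adjusted p = 0.006938) and the adhesion genes Flrt2 (−0.92, SE 0.16, edgeR adjusted p = 0.01553) and Chl1 (−1.82, SE 0.40, edgeR adjusted p = 0.04116) fell. Of 58 tested in endothelium, 2 were called, Xkr6, a relative of Xkr4 (−1.75, SE 0.33, edgeR adjusted p = 0.01984), and the neuron gene Uchl1 (−2.49, SE 0.50, edgeR adjusted p = 0.02674), and DESeq2 called 0. Over all genes 2.05% were called there. In mural cells edgeR called 0 of 53 and DESeq2 0, with 12 at an unadjusted p under 0.05. The medians of the 2 longest lists, relatives and synaptic adhesion genes, were −0.07 and −0.02 in fibroblasts, −0.10 and 0.11 in endothelium and −0.13 and −0.53 in mural cells. In empty droplets 29 of 95 were called (16 higher, 13 lower) and 18 by DESeq2, a share near the 29.5% of all genes. Among the 29 were the adhesion gene Kirrel3 (54.7, 63.9, 694 and 445 CPM, 3.26, SE 0.34, edgeR adjusted p = 0.00675) and the vesicle protein gene Sv2b (2.51, SE 0.44, edgeR adjusted p = 0.01054), which were higher in Z/Z, and the adhesion receptor Adgrl1 (−1.93, SE 0.40, edgeR adjusted p = 0.01491), which was lower. The corresponding medians there were 0.00 for relatives and −0.17 for synaptic adhesion genes, beside −0.01 over all genes.

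Most of the 9 genes are very long. In the annotation 8 of the 9 span over 370 kb, as 1.31% of all genes do, and the median gene spans 12.3 kb. The 370 kb limit lies just below the second-shortest of the 9 (374 kb), so the count of 8 is fixed by it. Csmd1 covers 1643 kb (chromosome 8, 15892537 to 17535586, minus strand), Lingo2 1245 kb (chromosome 4, 35706647 to 36951747, minus), Sgcz 1139 kb (chromosome 8, 37522298 to 38661508, minus), Cadm2 965.5 kb and Sntg1 938 kb (chromosome 1, 8361475 to 9299878, minus). Syt1 covers 513 kb, Xkr4 466 kb (chromosome 1, 3205901 to 3671498, minus), St18 374 kb (chromosome 1, 6487231 to 6860940, plus) and Nrxn2 125 kb (chromosome 19, 6418731 to 6544169, plus). The counts take in intronic reads, so long introns can add UMIs. Annotated genes overlap Syt1 (Gm5136) and Xkr4 (Gm19938) on the same strand, so their split of reads is uncertain. Cadm2, Sgcz, Csmd1, Xkr4 and Nrxn2 have antisense neighbours. The mapping summaries set reads antisense to genes (7.2% to 11.4% of reads) apart from those mapped to the transcriptome, so the counts took the strand into account.

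Genes over 400 kb had a median fold change of −0.44 in TECs (362 genes, of which 14.4% were called higher and 27.1% lower), −0.20 in fibroblasts, −0.21 in endothelium and −0.20 in mural cells. Spearman's rho between span and fold change, across genes, which are not independent replicates, was −0.01 in TECs, −0.21 in fibroblasts, −0.31 in endothelium and −0.24 in mural cells. In TECs, genes under 10 kb had a median of −0.02. The fold changes of Syt1, Cadm2, Sgcz, St18, Xkr4, Lingo2 and Sntg1 in TECs lay well below the median of their length class and that of Csmd1 above it, a description since they were chosen for it.

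**Figure D5:**
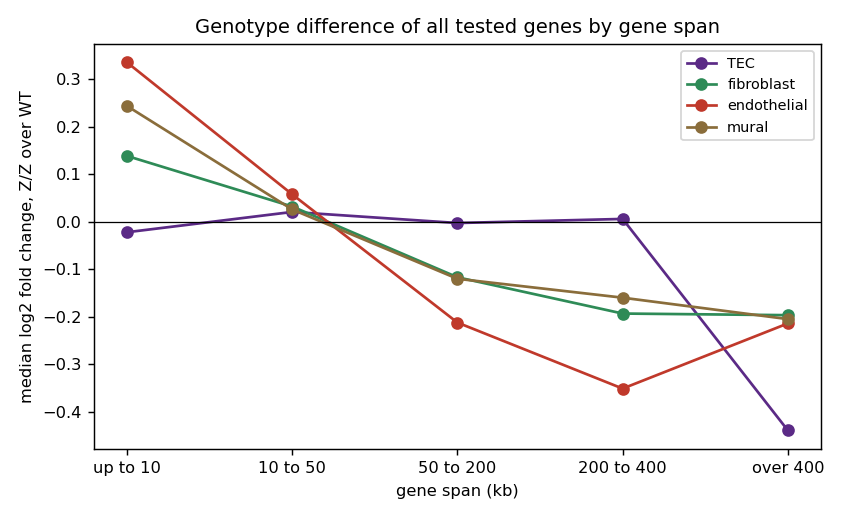
Median log2 fold change of Z/Z over WT for genes in 5 bins of gene span (kb), with 1 line each for TEC, fibroblast, endothelial and mural sums. The longest bin, over 400 kb, lies at −0.44 in TECs and near −0.2 in the other lineages, and the bin under 10 kb lies at −0.02 in TECs and at 0.14 to 0.34 in the others.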

How the data were processed

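Cell Ranger (version 7.01 in the submitters' processing notes, on mm10) had been used by the authors to make the deposited UMI counts per gene and barcode, which hold intronic reads, since 64.7% to 67.3% of reads mapped to the transcriptome against 49.0% to 51.4% to exons. The deposited summary tables give mapping and saturation as a percent of reads (saturation 65.2% to 95.2%). The labels name kit chemistry v2 and the methods name a v3 chip.

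Cells with more than 1000 genes and under 20% mitochondrial UMIs were kept (10245). The 3.9% of barcodes per library with the highest Scrublet scores (399) were removed as doublets, since Scrublet's own cutoff marked 97. Cells were clustered (scanpy 1.11.5, Leiden 0.10.2, resolution 1) without the 9 genes and all listed genes, and named from markers. Naming thresholds, among them that for the Epcam-low aaTEC2-like cells, were set after the data were seen.

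UMIs were summed per library and lineage and fitted with edgeR 4.0.16 (quasi-likelihood, TMM, filterByExpr, R 4.3.3), with DESeq2 1.42.0 as an alternative. Benjamini-Hochberg adjustment ran over all genes tested, with a threshold of 0.05. Genotype fits had 2 libraries against 2. The labels do not say that libraries of a genotype came from separate mice, so p-values measure only the spread between these libraries, which may be technical. Lineage fits had the library as a block. The genotype fit (on TEC and mural sums) and the lineage fit were tested on simulated counts. Filtering, doublet removal, clustering and naming were not. The 9 genes and the lists were chosen with earlier results of these data known. The text names all 9 genes, for each genotype fit at most 4 listed genes higher and 4 lower by smallest p among those past the threshold, and for each of the 9 genes the 3 most like it. One listed gene is not reported here.

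Replicate numbers did not pair the libraries (correlation of same-numbered deviations −0.096 in TECs, −0.057 in fibroblasts, −0.007 in endothelium, −0.036 in mural cells). Settings tried were DESeq2, no filter on low counts, a replicate block, over 500 genes per cell, no doublet removal, resolution 2, cells thinned to 2000 UMIs, shared barcodes left out, each library left out, empty droplets up to 50 UMIs, and TECs without the aaTEC2-like cells.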

Additional observations from a re-analysis of the deposited data

Results flagged for a closer look

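The genotype differences of 2 genes had opposite signs in different lineages, with both Z/Z libraries on the same side of both WT libraries in each. For Csmd1 the log2 fold change of Z/Z over WT was 1.61 in TECs and −2.28 in fibroblasts, which are 3.89 apart, and 2.26 in endothelium, 4.53 from fibroblasts. For Sntg1 it was 2.42 in fibroblasts and −2.54 in TECs, 4.96 apart. The difference between lineages was not tested, since both genes had been chosen for these contrasts. With cells thinned to 2000 UMIs the endothelial Csmd1 difference was 0.64 (SE 0.52) and its call was lost, and without shared barcodes the genotypes overlapped for Sntg1 in TECs (WT 2 at 15.2 CPM, Z/Z 1 at 16.5). Without the aaTEC2-like cells the Csmd1 difference in TECs was 0.155 (SE 0.18). In TECs 1 cell held 29.4% of the Sntg1 UMIs of WT 1 and 1 cell held 75.1% of those of WT 2.

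Some cells outside the 4 lineages, present only in Z/Z, read higher than any of the 4 lineages did in the Z/Z libraries. An unnamed cluster with Ctnna2 and Luzp2 as leading genes (113 and 38 cells) was at 3460 and 4150 CPM for Csmd1, 310 and 358 for Xkr4 and 137 and 395 for Cadm2. Its best marker score was for Schwann cells (0.911), with S100b among its leading genes. It stayed unnamed because 2 Schwann markers were detected where naming asked for 3. A mesothelial-like cluster with Upk3b and Gpm6a (4 and 28 cells) was at 88.4 and 96.0 CPM for Nrxn2 and 63.1 and 80.0 for Cadm2. No WT cell fell in either cluster, so genotypes could not be compared there.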

How the results depend on the processing

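Counts of genes called moved with the setting as follows. TEC sums (4115) gave 2531 with a replicate block, 1 without shared barcodes and 406 to 4147 without 1 library, the lowest without Z/Z 1 (1534 without Z/Z 2). Fibroblast sums (433) gave 1329 without the filter, 888 at resolution 2, 203 without shared barcodes and 126 to 739 without 1 library. Endothelial sums (233) gave 738 without the filter, 367 with the block, 87 at over 500 genes, 57 without shared barcodes, 10 thinned and 77 to 772 without 1 library. Mural sums (10) gave 22 with DESeq2, 160 without the filter, 16 with the block, 2 at over 500 genes, 4 without doublet removal, 4 without shared barcodes, 5 thinned and 16 to 173 without 1 library. Empty droplets (3679) gave 2340 with DESeq2, 1564 up to 50 UMIs and 1627 to 4452 without 1 library. Lineage differences (10985) gave 7168 thinned and 8452 to 11871 without 1 library. At a mean of at least 10 CPM, rho of span was −0.329 in fibroblasts and −0.403 in endothelium. With 1 library left out, the lone one is assumed to vary like the others. The cause of these shifts was not tested.

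In TECs the 8 called genes of the 9 kept their direction in 13 of 13 alternatives each, with log2 fold changes of −3.51 to −2.22 for Syt1, −3.77 to −3.07 for Cadm2, −5.91 to −4.32 for Sgcz, −2.27 to −1.74 for Xkr4, −3.55 to −1.53 for St18, −2.18 to −1.44 for Lingo2, −3.17 to −1.24 for Sntg1 and 0.155 to 1.78 for Csmd1. In fibroblasts Csmd1 (−2.55 to −1.90), Sntg1 (2.13 to 2.72) and Syt1 (−3.45 to −1.89) kept theirs in 12 of 12. Endothelial Sntg1, which was not called, ran from −4.37 to 1.63. In empty droplets the adjusted p of St18 ran from 0.0289 to 0.2301, and Lingo2 passed with the block (0.03326) and up to 50 UMIs (0.03344). WT 2 had the fewest cells, with 103 TECs, 25 endothelial and 11 mural cells, though its TECs were the deepest (median 16510 UMIs).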

Other observations

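Other small clusters outside the 4 lineages also read these genes. An unnamed cluster with Igkc and Ighm as leading genes (30, 10, 27 and 17 cells) had St18 at 59.2 and 48.7 CPM in WT and 0 UMIs in both Z/Z libraries. An unnamed cluster with Arhgap45 and Igha, 77 of its 78 cells from WT 2, was at 1168 CPM for Csmd1, 281.5 for Syt1 and 56.3 for Cadm2. A cluster led by Pth and Gpr132 (4 cells in WT 1 and 91 in Z/Z 2) had Csmd1 at 897.5 and 497 CPM and Syt1 at 359 and 68.9. In the mesothelial-like cluster Sntg1 was at 1124 and 808 CPM and Xkr4 at 50.5 and 48.0.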
